A study of Mus musculus with 6 samples.

Results

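The 10 genes described here are the Notch receptors Notch1, Notch2, Notch3 and Notch4, the ligands Jag1, Jag2 and Dll1, and the target genes Hes1, Hey1 and Heyl. They were chosen by name from a table of 52636 genes counted in cultured J110 and SSM3 cells, and all 10 were found in it. RNA from 3 biological replicates of each line was sequenced from the 3′ ends of polyadenylated transcripts. J110 cells came from a mammary tumour of mice in which AIB1 cDNA was driven by the MMTV LTR, and SSM3 cells from a mammary tumour of gene-deficient mice. Each line stands for 1 tumour model, neither was treated, and culture media, serum and CO2 differed between them, so effects of culture and line cannot be told apart.

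Notch receptors sit in the plasma membrane and are switched on by ligands on a neighbouring cell. Binding lets ADAM proteases and then γ-secretase cut the receptor, and the freed intracellular domain enters the nucleus, where it joins RBPJ and Mastermind proteins and turns on repressors of the Hes and Hey families. In the mammary epithelium Notch signalling is known for its part in luminal cell fate, and Notch1 and Notch4 are known there as insertion sites of the mouse mammary tumour virus.

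Total counts lay between 4200785 and 5416305 per library. Counts per 1000000 (CPM) use these totals scaled by TMM, and 3 counts correspond to between 0.578 and 0.668 CPM. Genes that passed a filter on low counts were compared with edgeR's quasi-likelihood test, in which 9566 of 12284 genes (77.9%) passed an adjusted p of 0.05, 38.6% of all being higher and 39.2% lower in SSM3. Ncoa3, which encodes AIB1, had 110, 106 and 102 counts in the replicates labelled J110 against 181, 199 and 186 in those labelled SSM3. The level was higher in SSM3 and did not follow the AIB1 origin of J110. Reads from a transcript's 3′ end may lie outside an inserted cDNA, so these counts did not check the labels, and J110 and SSM3 below stand for the labels of the libraries. A ribosomal RNA locus on chromosome 17 took from 15.1% to 17.2% of the counts in J110 and from 0.779% to 1.27% in SSM3. Genes of the other line were those averaging at least 200 CPM there and at most 1 CPM in the line itself. There were 23 of them for the J110 libraries and 18 for those of SSM3. On these genes, J110 replicate 3 and SSM3 replicate 2 held the most counts, at 0.217% and 0.352% of the other line's level. The choice of genes keeps such values low, so they only rank the libraries of a line.

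Of the epithelial markers, Epcam, Cdh1 and Krt19 were low in J110, with 10, 60 and 276 counts over the 3 libraries against 7192, 19567 and 105501 in SSM3, while the keratins Krt8 and Krt18 averaged 970.0 CPM or more in both lines. Vim, a mesenchymal filament gene, averaged 5140 CPM in J110 and 9.61 CPM in SSM3. Dcn, a matrix proteoglycan gene of the same stromal list, went the other way, with 13 counts over the J110 libraries and 20053 over those of SSM3. The other 4 genes of the list had at most 16 counts over the libraries of a line, and Col1a2 and Lum were at 0 in both lines. Of 5 leukocyte markers, Cd68 had 280 counts over the J110 libraries and 20 over those of SSM3, and the other 4, Ptprc among them, had at most 2. In bulk RNA of this kind, fewer cells that express a gene and less RNA per cell cannot be told apart.

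The lines differed in which receptors and ligands they expressed. Notch3 was counted in SSM3 and not in any J110 library, Jag2 and Dll1 were counted in J110 and were at or near 0 in SSM3, and Notch2, Jag1 and Hes1 were counted in both. Of the 10 genes, 9 passed the filter and were tested, 4 were higher in SSM3 and 5 were lower, and Heyl had no count in any library. All 9 tested genes had an adjusted p below 0.05 and no overlap between the libraries of the lines, where 77.9% and 79.6% of all tested genes did. The median size of the log2 fold change was 2.04 for the 9 genes, also with Notch3 and Dll1 set to their bounds below, and 0.84 for all tested genes. Of the 9 genes, 6 had fewer than 10 counts in at least 1 library and passed the filter through the line in which they were higher, so these counts and this median are descriptions. With the ribosomal RNA locus left out before scaling, 9 of the 9 were again called, and so they were without both J110 replicate 3 and SSM3 replicate 2.

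**Figure D1:**
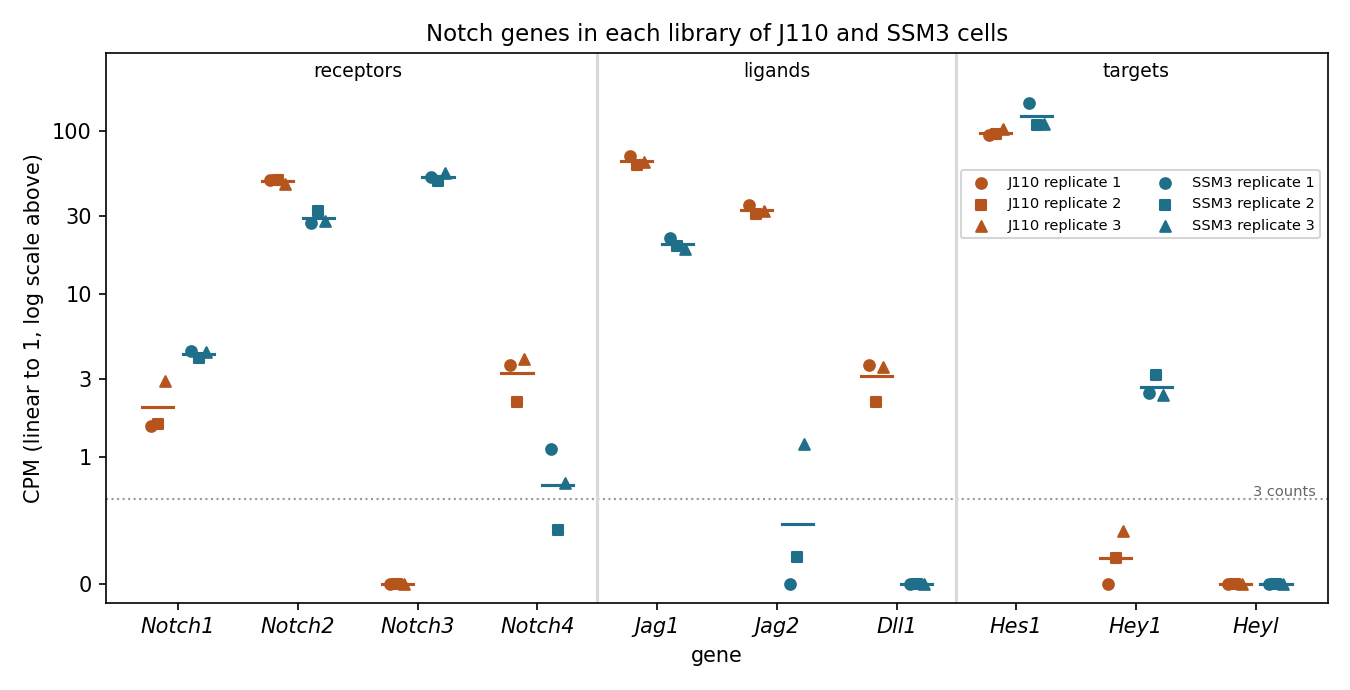
CPM of the 10 Notch genes (y axis, linear up to 1 and logarithmic above) in the 3 J110 libraries and the 3 SSM3 libraries, with a horizontal bar at the mean of each line and a dotted line at the highest CPM that 3 counts give. Notch3 lies at 0 in all 3 J110 libraries and between 49.3 and 54.9 CPM in SSM3, and Dll1 shows the reverse, with 0 in SSM3.

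Promoter sequence is given for 3 genes, Notch3, which had no count in J110, its paralogue Notch2, counted in both lines, and Dll1, which had no count in SSM3. Each is the 250 bases before a RefSeq transcription start in GRCm38.p6 (mm10), read 5′ to 3′ on the gene's own strand, and capitals mark the GC box, GGGCGG, on either strand. The RefSeq table listed 7 of the 10 genes, without Hes1, Hey1 and Heyl. Notch3 is shown from chr17:32166891-32167140 (reverse strand), Notch2 from chr3:98013288-98013537 (forward strand) and the outer start of Dll1 from chr17:15376933-15377182 (reverse strand).
Notch3: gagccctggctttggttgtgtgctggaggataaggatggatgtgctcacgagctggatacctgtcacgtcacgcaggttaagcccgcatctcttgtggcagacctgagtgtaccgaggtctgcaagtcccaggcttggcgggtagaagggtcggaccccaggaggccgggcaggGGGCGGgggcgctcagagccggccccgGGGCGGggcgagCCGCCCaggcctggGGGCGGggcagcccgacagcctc
Notch2: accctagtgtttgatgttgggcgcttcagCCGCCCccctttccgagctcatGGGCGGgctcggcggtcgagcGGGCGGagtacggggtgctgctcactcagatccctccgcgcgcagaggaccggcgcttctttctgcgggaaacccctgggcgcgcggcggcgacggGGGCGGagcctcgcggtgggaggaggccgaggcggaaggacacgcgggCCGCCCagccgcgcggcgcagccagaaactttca
Dll1: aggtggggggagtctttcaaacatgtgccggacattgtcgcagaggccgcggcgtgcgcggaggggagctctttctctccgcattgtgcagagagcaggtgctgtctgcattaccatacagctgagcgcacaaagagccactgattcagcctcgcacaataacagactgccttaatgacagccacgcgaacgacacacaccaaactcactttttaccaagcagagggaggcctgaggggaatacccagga
The Notch3 window held 4 GC boxes and was 68.8% G and C, the Notch2 window held 5 and was 72%, and the Dll1 window held 0 and was 56%. A GC box occurred in 32.7% of 32851 promoter windows of the same length. The core letters bound by RBPJ, TGGGAA, searched on both strands, were in none of these windows nor in those of the other listed genes, and occurred in 21.6% of all windows.

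Among the receptors, Notch3 (ENSMUSG00000038146, chromosome 17 of mm10 from 32120820 to 32166852, reverse strand) had 0, 0 and 0 counts in the J110 replicates against 233, 232 and 276 in those of SSM3. In CPM this was 52.0 ± 2.83 (SD, n = 3) in SSM3, at least 83.1-fold above the level that 3 counts give in a J110 library (edgeR adjusted p = 1.82e-12). Notch3 is known as a receptor of vascular mural cells and of luminal mammary cells. The markers of pericytes and smooth muscle, Pdgfrb, Rgs5, Cspg4, Acta2, Myh11 and Des, summed to from 1.11 to 2.59 CPM in SSM3 and between 0.396 and 0.578 CPM in J110. Pdgfrb, Rgs5 and Myh11 were at 0 in SSM3. Acta2, Des and Cspg4 had 12, 8 and 6 counts over the SSM3 libraries against 2, 0 and 0 over those of J110. Gm17276 shares exonic bases with Notch3 on the opposite strand and was not counted at all. Of the genes that share exonic bases with other members, Gm42820 at Notch2 had at most 6 counts in a library and A930024N18Rik at Dll1 at most 2.

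Notch2 (ENSMUSG00000027878, chromosome 3 from 98013527 to 98150361, forward strand), a broadly expressed receptor, had 259, 252 and 226 counts in the J110 replicates against 122, 152 and 140 in those of SSM3. The J110 libraries were all above the SSM3 libraries, at 49.0 ± 1.58 and 29.1 ± 2.77 CPM (SD, n = 3 each). The log2 fold change, SSM3 against J110, was -0.75 (SE 0.11, edgeR adjusted p = 9.52e-06). The size of this change lies below 2-fold, and edgeR's glmTreat, which tests for a change above 2-fold, gave an adjusted p of 1.

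Notch1 (ENSMUSG00000026923, chromosome 2 from 26457903 to 26516663, reverse strand) and Notch4 (ENSMUSG00000015468, chromosome 17 from 34564268 to 34588503, forward strand) were counted at low levels. Notch1, whose activation drives T-cell leukaemia, had 8, 8 and 14 counts in the J110 replicates against 20, 19 and 22 in those of SSM3. Its log2 fold change was 1.09 (SE 0.32, edgeR adjusted p = 0.00582). The long noncoding gene 0610009E02Rik shares up to 964 bases of an exon with Notch1 on the opposite strand and had 3, 7 and 10 counts in the J110 replicates against 15, 19 and 21 in those of SSM3, nearly as many as Notch1 in SSM3. Gm13568 shares up to 414 bases with it on that strand and had from 3 to 10 counts in J110 and from 11 to 14 in SSM3. The strand setting of the counting is not given in the sources used here, so reads of these genes cannot be told apart and the Notch1 value is uncertain.

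Notch4, a receptor best known in endothelium and the gene of the Int3 insertion site, went the other way, with 19, 11 and 19 counts in the J110 replicates against 5, 2 and 4 in those of SSM3. Its log2 fold change was -2.04 (SE 0.44, edgeR adjusted p = 0.00046). Of the endothelial markers, Cdh5 moved with it and made up nearly all of their sum. It had 836, 790 and 856 counts in the J110 replicates against 0, 2 and 0 in those of SSM3, and the 7 endothelial markers summed to between 158 and 181 CPM in J110 and between 0 and 0.425 CPM in SSM3. Of the others in J110, Kdr had 25 counts over the 3 libraries, Pecam1 had 7 and Tek had 1, while Tie1, Emcn and Erg were at 0. The part of this marker pattern in the Notch4 counts was not tested.

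Shares within a library do not depend on the scaling between libraries. They add up to a fixed total, so the shares of the genes of a role are not separate results. In J110, Notch2 made up 90.3% ± 2.88 (SD, n = 3) of the counts on the 4 receptors, Notch4 6.01% ± 1.73 and Notch1 3.72% ± 1.46. In SSM3, Notch3 made up 60.3% ± 2.71 (SD, n = 3), Notch2 33.8% ± 3.26, Notch1 4.98% ± 0.286 and Notch4 0.905% ± 0.411. The shares of Notch2, Notch3 and Notch4 did not overlap between the lines (exact permutation test over the 6 libraries, two-sided p = 0.1, which is the lowest the design allows). The Notch1 share overlapped between the lines (exact permutation p = 0.4). Summed over the 4 receptors the level was 54.3 ± 0.79 CPM in J110 against 86.2 ± 1.67 CPM in SSM3 (SD, n = 3 each), so the sum was higher in SSM3 although Notch2 was lower.

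**Figure D2:**
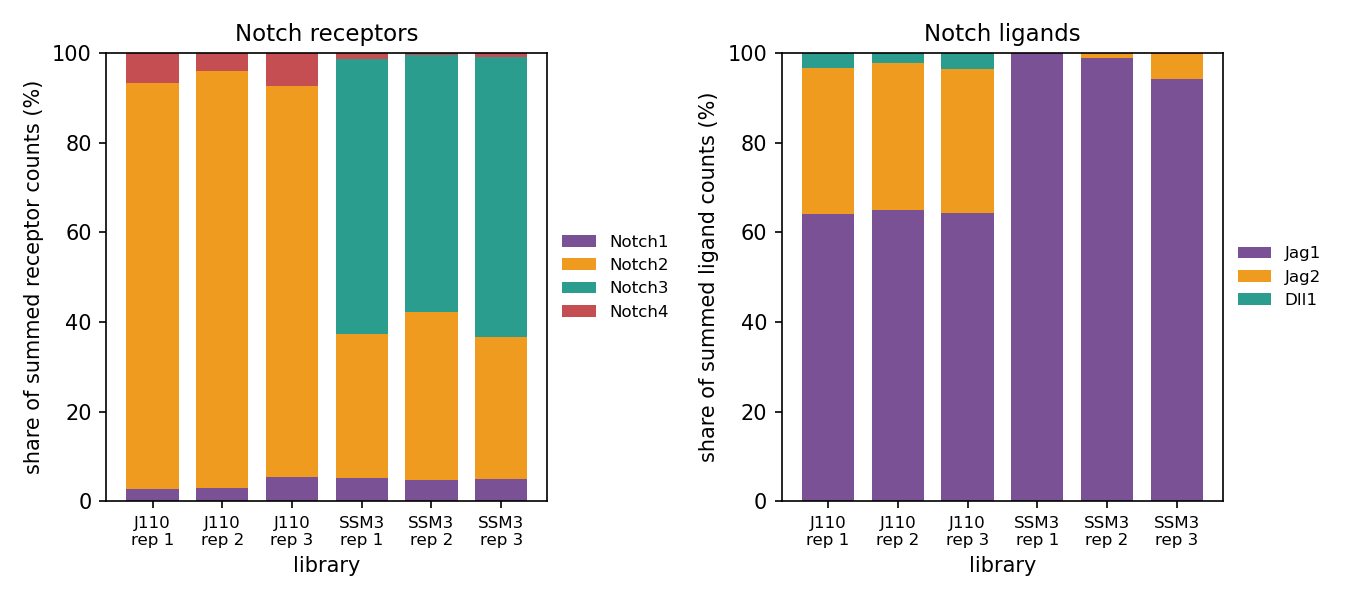
Share (y axis, percent) of each Notch receptor in the summed receptor counts (left) and of each ligand in the summed ligand counts (right), 1 stacked bar for each of the 6 libraries. Notch2 fills most of the receptor bars of J110 and Notch3 most of those of SSM3, while Jag1 alone makes up 94.1% or more of the ligand counts in each SSM3 library.

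The ligands were all lower in SSM3, 3 of 3, as were 39.2% of all tested genes, and Jag2 and Dll1 passed the filter through J110. Jag1 (ENSMUSG00000027276, chromosome 2 from 137081456 to 137116644, reverse strand), a Serrate-type ligand, had 361, 310 and 309 counts in the J110 replicates against 99, 93 and 95 in those of SSM3. This was 65.1 ± 4.18 and 20.2 ± 1.63 CPM (SD, n = 3 each), and its log2 fold change was -1.69 (SE 0.11, edgeR adjusted p = 5.77e-10). Jag1 was the most counted of the 3 ligands in both lines.

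Jag2 (ENSMUSG00000002799, chromosome 12 from 112907819 to 112929776, reverse strand), its closest relative, had 183, 156 and 155 counts in the J110 replicates against 0, 1 and 6 in those of SSM3. Every J110 library was thus far above every SSM3 library, at 32.8 ± 2.25 against 0.469 ± 0.637 CPM (SD, n = 3 each). The log2 fold change was -5.99 (SE 0.34, edgeR adjusted p = 9.42e-11). Of the 7 counts in SSM3, 6 fell in replicate 3, and without that library the log2 fold change was -7.93.

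Dll1 (ENSMUSG00000014773, chromosome 17 from 15367354 to 15376872, reverse strand), a Delta-type ligand known in mammary basal cells, had 19, 11 and 17 counts in the J110 replicates against 0, 0 and 0 in those of SSM3. The level in J110 was 3.13 ± 0.827 CPM (SD, n = 3), so Dll1 was at least 4.68-fold lower in SSM3 against the level that 3 counts give there (edgeR adjusted p = 5.22e-06). Without J110 replicate 1, and again without J110 replicate 3, Dll1 and Notch4 did not pass the filter on low counts.

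The make-up of the ligand counts differed accordingly. Jag1, Jag2 and Dll1 held 64.5% ± 0.471, 32.5% ± 0.241 and 3.07% ± 0.668 (SD, n = 3 each) of them in J110. In SSM3 Jag1 held 97.7% ± 3.17 and Jag2 2.33% ± 3.17 (SD, n = 3 each). None of the 3 shares overlapped between the lines (exact permutation test, two-sided p = 0.1). The Jag1 share was higher in SSM3 although the Jag1 level was lower, since Jag2 and Dll1 were at or near 0 there. The summed ligand level was 101 ± 7.12 CPM in J110 against 20.7 ± 1.17 CPM in SSM3 (SD, n = 3 each), the opposite order to that of the receptors.

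Of the target genes, Hes1 (ENSMUSG00000022528, chromosome 16 from 30064384 to 30067796), a basic helix-loop-helix repressor, was the most counted of the 10 genes in both lines. It had 490, 480 and 491 counts in the J110 replicates against 667, 510 and 556 in those of SSM3, or 94.5, 94.9 and 102 CPM against 149, 108 and 111 CPM. The libraries did not overlap, yet the gap between the highest J110 and the lowest SSM3 library was small beside the spread within SSM3. The log2 fold change of 0.33 (SE 0.11, edgeR adjusted p = 0.0118) was the smallest of the 9 genes. Without SSM3 replicate 1 it was 0.18 (adjusted p = 0.0771), without J110 replicate 1 it was 0.30 (adjusted p = 0.0541) and without J110 replicate 2 it was 0.30 (adjusted p = 0.0552), in a range of adjusted p from 0.000524 to 1 over all alternatives.

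Hey1 (ENSMUSG00000040289, chromosome 3 from 8663359 to 8667256), a related repressor, had 0, 1 and 2 counts in the J110 replicates against 11, 15 and 12 in those of SSM3. The ratio of the summed counts, scaled for library size, was 13.4 with a 95% interval from counting of 4.25 to 67.8 (exact binomial, which covers counting error only), and the adjusted p was 3.64e-05 from edgeR's test. Without J110 replicate 3, which held 2 of the 3 J110 counts, the log2 fold change was 4.44, and without J110 replicate 1 it was 3.02, against 3.58 with all libraries. Heyl (ENSMUSG00000032744, chromosome 4 from 123233556 to 123249875), the third of the Hey family, had no count in 6 libraries, which allows a level of up to 0.668 CPM. Hes1 made up 99.8% ± 0.203 of the counts on the 3 targets in J110 and 97.8% ± 0.622 in SSM3 (SD, n = 3 each).

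Reads from 3′ ends give about 1 fragment per transcript whatever its length, so CPM were compared between genes without a length term. In J110 the order was Hes1, Jag1, Notch2 and Jag2, whose libraries did not overlap, followed by Notch4, Dll1 and Notch1, whose libraries overlapped each other, then Hey1 at 0.205 ± 0.209 CPM (SD, n = 3), and Notch3 and Heyl at 0. In SSM3 the order was Hes1, Notch3, Notch2, Jag1, Notch1 and Hey1, whose libraries did not overlap, followed by Notch4 and Jag2, whose libraries overlapped, and Dll1 and Heyl at 0. Among the genes counted at all in a line, Hes1 stood at percentile 90.7 in J110 and 91.9 in SSM3, Jag1 at 85.8 and 64.9, and Notch2 at 81.6 and 71.1.

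The 3 genes whose log2 CPM over the 6 libraries lay nearest to those of Notch3, the most counted receptor of SSM3, were C130021I20Rik at a Euclidean distance of 0.0576, Gm16136 at 0.168 and Meis1 at 0.356. Each of the 3 had no count in J110, and 27 genes in all lay within a distance of 1. For Notch2, the most counted receptor of J110, the nearest were Gen1 at 0.152, Prps2 at 0.181 and Mre11a at 0.228, and 563 genes lay within a distance of 1.

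The other genes of the pathway were taken from lists of 48 genes grouped by role, of which 37 passed the filter. Of these, 21 were higher in SSM3, 10 were lower and 6 were not called, so 83.8% were called beside 77.9% of all tested genes. Their median log2 fold change was 0.60, where that of all tested genes was -0.014.

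Of the other ligands, 1 of 5 was tested. Dlk2, a Delta-like protein without the receptor-binding DSL domain, fell from 11.3 ± 0.732 CPM in J110 to 1.28 ± 0.282 CPM in SSM3 (SD, n = 3 each), with a log2 fold change of -3.13. Abcc10, which shares 51 bases of an exon with Dlk2 on the opposite strand, had between 7 and 41 counts in each library, with fewer in SSM3, so the Dlk2 value is uncertain. Dll4, the endothelial Delta ligand, had 10, 4 and 0 counts in the J110 replicates against 0, 0 and 3 in those of SSM3 and was not tested. Dll3 had no count, and Dner had 3, 0 and 0 counts in the J110 replicates against 2, 0 and 0 in those of SSM3.

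The enzymes that put sugars on the receptors' EGF repeats were higher in SSM3, 4 of 4 tested, where 38.6% of all tested genes were. Lfng, the Fringe enzyme that extends O-fucose and changes which ligands a receptor answers to, had 60, 40 and 44 counts in the J110 replicates against 211, 238 and 296 in those of SSM3. This was 9.55 ± 1.86 against 52.1 ± 6.12 CPM (SD, n = 3 each), and its log2 fold change was 2.44 (SE 0.15, edgeR adjusted p = 3.69e-10). Poglut1, which adds O-glucose, had a log2 fold change of 1.52 and Pofut1, which adds the O-fucose, one of 0.77. Rfng, another Fringe enzyme, had a log2 fold change of 0.66 and was not called without J110 replicate 3 (edgeR adjusted p = 0.0689, with 0.0137 in all libraries). Mfng was not counted at all.

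Of the genes of receptor cleavage, 8 of 9 tested were higher in SSM3, beside 38.6% of all genes, and 1 was not called. Among the 8, Psenen shares exonic bases on the opposite strand with U2af1l4 and Gm49396, and Adam17 with Iah1. Gm49396 had 70, 65 and 44 counts in the J110 replicates against 227, 265 and 260 in those of SSM3. Iah1 had from 235 to 340 counts, so the Psenen and Adam17 values are uncertain. Gm44851 at Furin and Car14 at Aph1a had at most 38 and 31 counts in a library. Furin, which cuts the receptor on its way to the surface, rose from 144 ± 22.2 to 345 ± 47.3 CPM, and Adam10, the protease of the ligand-dependent cut, from 110 ± 15.1 to 275 ± 13.2 CPM (SD, n = 3 each). The γ-secretase subunit genes Aph1a, Psen2 and Aph1b had log2 fold changes of 1.29, 2.25 and 3.59. Aph1b had 3, 2 and 4 counts in the J110 replicates against 30, 32 and 45 in those of SSM3. Ncstn, another subunit of that complex, had 95, 95 and 87 counts in the J110 replicates against 81, 74 and 49 in those of SSM3 (log2 fold change -0.35, edgeR adjusted p = 0.1). Without SSM3 replicate 1 it was called lower (-0.53, edgeR adjusted p = 0.0243), and without SSM3 replicate 3 its log2 fold change was -0.13. Copa, which shares exonic bases with Ncstn on the opposite strand, had from 676 to 749 counts, so the Ncstn value is uncertain.

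Of the genes of the nuclear complex, 3 of 11 were higher, 4 lower and 4 not called, so 63.6% were called beside 77.9% of all tested genes. Rbpj, the DNA-binding partner of all 4 receptors, was at 80.5 ± 1.60 CPM in J110 against 73.3 ± 2.88 CPM in SSM3 (SD, n = 3 each), with a log2 fold change of -0.14 (95% interval -0.30 to 0.03, edgeR adjusted p = 0.146). The Mastermind coactivators were lower in SSM3, 3 of 3, as were 39.2% of all tested genes. Maml2 fell from 21.3 ± 0.789 to 3.45 ± 0.512 CPM (SD, n = 3 each). Maml1 and Maml3 had smaller log2 fold changes, of -0.9965 and -0.8109. With glmTreat for a change above 2-fold, Maml2 was called (adjusted p = 3.12e-07). Maml1 (adjusted p = 0.577) and Maml3 (adjusted p = 0.989) were not called by glmTreat. With DESeq2 the adjusted p of Maml3 was 0.0691. The corepressor gene Tle3 had a log2 fold change of -2.22. Snw1, a coactivator, was higher by 0.60 on the log2 scale, but Slirp shares up to 2403 bases with it on the opposite strand and had from 882 to 1493 counts where Snw1 had from 965 to 1603, so the value is uncertain.

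Of the genes for endocytosis and turnover, 4 of 10 tested were higher, 5 lower and 1 not called, so 90% were called. Of all tested genes 77.9% were called, 38.6% higher and 39.2% lower. Numb, an inhibitor of Notch, had 27, 24 and 17 counts in the J110 replicates against 111, 98 and 99 in those of SSM3, a log2 fold change of 2.26. Dtx4, a Deltex ubiquitin ligase, had one of 2.37. Mib1, the ligase that lets the ligand-bearing cell pull on the receptor, had one of -1.09, from 54.1 ± 3.10 to 25.4 ± 0.619 CPM (SD, n = 3 each). Dtx2, another Deltex ligase, had one of -0.62 and lost its call without J110 replicate 1 (adjusted p = 0.0523 from edgeR) and without SSM3 replicate 2 (adjusted p = 0.0708). Fbxw7, which marks the intracellular domain for degradation, had one of -0.62.

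Of the other targets, Nrarp, a feedback inhibitor induced by Notch, had 25, 18 and 18 counts in the J110 replicates against 112, 119 and 109 in those of SSM3. Its log2 fold change was 2.55 (SE 0.19, edgeR adjusted p = 3.04e-09). Gm38287, which shares up to 1487 bases with Nrarp on the opposite strand, had 25, 18 and 18 counts in the J110 replicates against 110, 119 and 108 in those of SSM3. The 2 genes were thus counted from nearly the same reads, and which of them was transcribed cannot be told apart. Hes6, listed here as a member of the Hes family, was higher by 0.62 on the log2 scale, and whether Notch induces it in these cells was not tested. Hes7 had at most 5 counts in a library. Hes5 and Dtx1 had no count and Hey2 had 1.

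**Figure D3:**
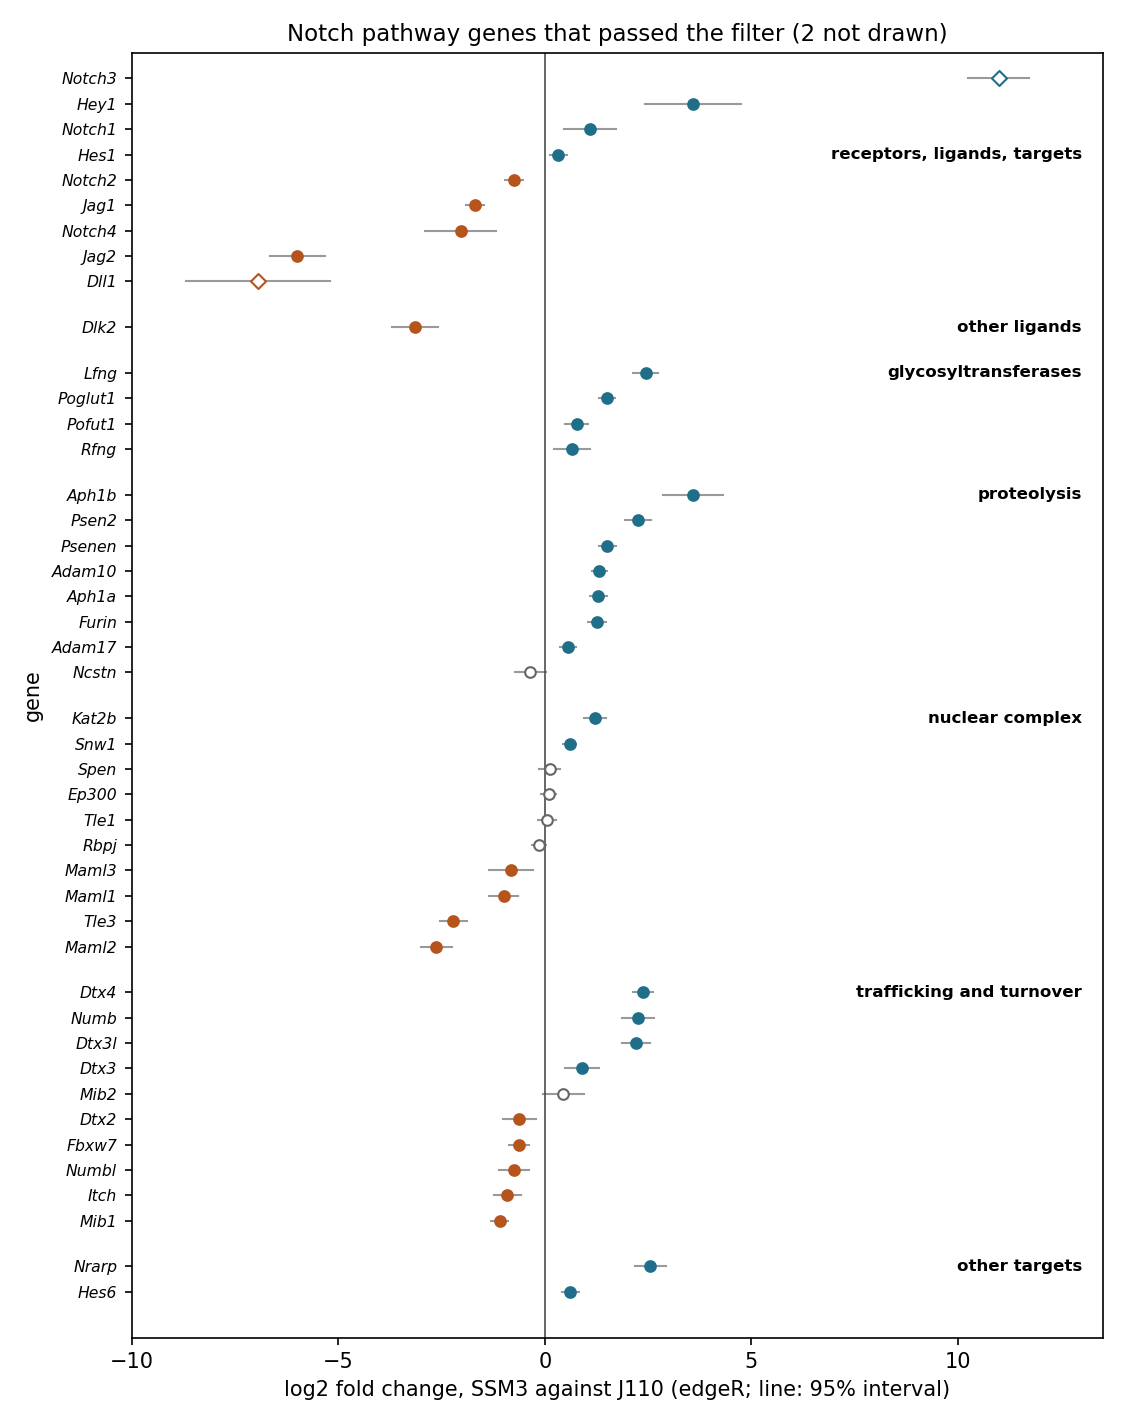
Log2 fold change, SSM3 against J110 (x axis, with a line for its 95% interval), of the Notch pathway genes that passed the filter, grouped by role, without 2 that are counted in the lists and not drawn. Blue points are higher and brown points lower in SSM3 with an adjusted p below 0.05, open circles were not called, and open diamonds mark Notch3 and Dll1, which had no count in 1 of the lines and whose fitted values depend on the prior count. All glycosylation genes tested lie to the right of 0, as do the genes of receptor cleavage drawn except Ncstn, while the nuclear complex lies on both sides.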

How the data were processed

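RNA of cultured J110 and SSM3 cells (n = 3 biological replicates each, grouped by the sample titles) was made into 3′ end libraries. Per the labels and the methods, the authors trimmed reads with cutadapt 2.1, mapped them to mm10 with HISAT2 2.0.4 and counted them per gene with featureCounts of Subread 2.0.0. The deposited values are raw counts without normalisation. Of 52636 gene identifiers, 52403 (99.6%) matched GENCODE M21 (GRCm38), which gave symbols, coordinates and shared exons.

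Genes with low counts were dropped by filterByExpr, TMM set the scale, and the lines were compared by edgeR's quasi-likelihood test (edgeR 4.0.16, limma 3.58.1, R 4.3.3) over 12284 genes, with Benjamini-Hochberg adjustment and a threshold of 0.05. Log2 CPM used a prior count of 2. A standard error is the size of the log2 fold change divided by the square root of F. Replicates of a line differed by more than sampling noise (chi-square per degree of freedom from 2.21 to 5.62).

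The 10 genes and the lists of 48 others were chosen with earlier results of these data known. Named among the others are, per list, the 3 genes highest in mean log2 CPM and the 2 with the largest called change. Of the listed genes, 2 are in the counts and, like the allele of the SSM3 mice, are not reported here. Ncstn, Mfng, Rfng, Maml1, Maml3, Dtx2, Dll3, Hes5, Dtx1, Hey2, Ncoa3 and the genes that share exons with named ones were added after their values were seen. So were Psenen and Adam17, for their shared exons, and Ep300, Spen, Tle1 and Mib2, for a changed sign or call under an alternative. Alternatives were DESeq2 1.42.0, limma-voom, glmTreat, other scalings and filters, a replicate block, and leaving out libraries. Promoters came from RefSeq (GRCm38.p6).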

Additional observations from a re-analysis of the deposited data

How the results depend on the processing

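The 9 tested genes kept their direction under every alternative that could test them. Calls were lost by Hes1 without J110 replicate 1, J110 replicate 2 or SSM3 replicate 1, and by Notch1, Notch2 and Hes1 with glmTreat for a change above 2-fold, which called 6 of the 9, 15 of the other Notch genes and 4272 genes in all. Requiring at least 10 counts in every library left 3 of the 9 genes to be tested, since it removes genes near 0 in a line. All 3 were called, where 7288 of 9686 genes were. Library size alone, in place of TMM, shifted the all-gene median of the log2 fold change from -0.014 to 0.16. It called 5373 genes higher and 4140 lower, against 4746 and 4820 with TMM, so the balance of directions depends on the scaling. The same setting gave Hes1 0.51, turned Rbpj to 0.039 (adjusted p = 0.678), called Ep300 (0.27, adjusted p = 0.0133) and Mib2 (0.62, adjusted p = 0.0357) higher, and lost the call of Dtx2 (-0.45, adjusted p = 0.058). Genes near 0 also changed sign, Ep300 to -0.0012 without J110 replicate 1 (up to 0.15 without 1 other library), Spen to -0.015 without SSM3 replicate 2 (up to 0.24 without 1 other library) and to -0.063 without both J110 replicate 3 and SSM3 replicate 2, and Tle1 to -0.022 without both. That setting, which removes the libraries with the most counts on genes of the other line, called 9 of the 9 genes and 29 of the other Notch genes, with Rfng (adjusted p = 0.0545) among those lost. With 1 library left out, called genes ranged from 9275 to 9572 in all, from 6 to 9 of the 9 and from 30 to 32 of the others, where Notch4 and Dll1 did not pass the filter without J110 replicate 1 or J110 replicate 3 and so were not tested.

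Adding the replicate number as a block called 9 of the 9 genes, 31 of the other Notch genes and 9481 genes in all, against 9, 31 and 9566 without it. Deviations of same-numbered libraries correlated at 0.0118, 0.0155 and 0.0268. Every library correlated best with its own number, a hint from the data and not from the design, and the numbers were not taken as pairs.

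The difference in the Notch2 share, SSM3 minus J110, was -62 percentage points with Notch4 left out of the sum and -56.5 with it. With Hes6, Hey2 and Nrarp added to the targets the difference was -9.93 for Hes1 and 1.03 for Hey1. Without 1 library at a time the differences ranged from -58.4 to -55.1 percentage points for Notch2, 59.3 to 61.9 for Notch3, -6.08 to -4.45 for Notch4, 0.80 to 2.1 for Notch1, 32.0 to 35.0 for Jag1, -31.9 to -29.0 for Jag2, -3.45 to -2.84 for Dll1, -2.28 to -1.66 for Hes1 and 1.66 to 2.28 for Hey1. A library with no count of a gene still allows a level of up to 3 counts, which limits what can be said of Heyl in both lines, Notch3 in J110 and Dll1 in SSM3.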
